A study of Mus musculus with 4 samples.

Results

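The cytosolic ribosomal protein genes were taken by name from the deposited table of estimated read counts. A gene was a member if it was typed as protein coding and its name began with Rpl or Rps followed by a digit, or was Rplp0, Rplp1, Rplp2 or Rpsa, and names beginning with Rps6k, which are kinases, were left out. This gave 87 members of 22554 genes, of which 53 carried large subunit names, including the 3 genes of the P stalk, and 34 carried small subunit names. Of these, 77 were the constituents of the ribosome itself, called core genes here, with 46 in the large subunit and 31 in the small subunit. The other 10 were paralogs or relatives, namely Rpl22l1, Rps27l, Rps27rt, Rpl36al, Rpl39l, Rpl7l1, Rpl10-ps3, Rpl9-ps6, Rpl36a-ps1 and the Rps19-binding protein gene Rps19bp1.

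RNA was sequenced in group 2 innate lymphoid cells (ILC2s), which release type 2 cytokines in the lung. Cells sorted from lungs of BALB/c mice aged 6 weeks were cultured with IL-2, IL-7 and IL-33, and with either vehicle or compound 5D, a small molecule that blocks the Orai calcium channels. Both groups therefore shared the strain, the age and the 3 cytokines, and differed by the compound, with 2 libraries per group. No source used here says whether the libraries of a group came from separate mice, pools or cultures, so the p-values measure the spread between these libraries, which may be technical.

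The libraries held between 20096555 and 28697265 counts. The unit of a level is normalized CPM, which is counts scaled to library size with upper quartile factors. The 10 listed ILC2 markers, Gata3, Il1rl1, Rora, Il7r and Il5 among them, summed to between 9585 and 10458 normalized CPM. Of this sum, Il5 alone held between 4377 and 4752. The 9 lists of markers of other cell types each summed to at most 28.3 normalized CPM in any library. These sums cover only the markers present among the 22554 genes, from 2 of 5 for B cells to 6 of 6 for epithelium.

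Each cytosolic ribosome is built from a small subunit, which reads the mRNA, and a large subunit, which joins the amino acids, and most of their proteins are encoded by a single working gene with many inactive retrocopies elsewhere in the genome. Many of their mRNAs begin with a C followed by a run of pyrimidines, the 5′ TOP motif, through which mTORC1 and the protein Larp1 control how strongly they are translated. Lymphocytes that are activated by cytokines grow and make more ribosomes.

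The starts of the transcripts are shown first, since the TOP motif is the feature that the members are best known to share and that the name rule did not use. RefSeq promoter windows (GRCm38.p6, the build of the files) were found for 64 of the 87 members. A C followed by at least 4 pyrimidines lay exactly at an annotated start in 14 of them (21.9%), against 3.01% of 27025 genes. With at least 6 pyrimidines, the shares were 15.6% and 1.29%. None of 69 mitochondrial ribosomal protein genes and none of 39 ribosome assembly factor genes had the motif at the start. Of 14 other genes known for TOP mRNAs, 3 (21.4%) had it there, a share like that of the members. Annotated starts can be off by a few bases, and when the motif was looked for within 10 bases of the start, 59.4% of the members and 34.4% of all genes had it. By that wider rule it was also found in 44.9% of the mitochondrial ribosomal protein genes and 23.1% of the assembly factor genes. Of the 14 other genes known for TOP mRNAs, 57.1% had it. The windows run from 10 bases before the start to 20 bases from it, and the capitals mark the pyrimidine run that begins at the start. The first 6 are from core genes of both subunits and of the stalk, and Rps27rt is the copy of Rps27.
Rpl15, chr14:18270967-18270996, minus strand: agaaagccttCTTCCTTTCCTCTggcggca
Rpl35, chr2:39005112-39005141, minus strand: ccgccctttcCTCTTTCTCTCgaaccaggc
Rplp2, chr7:141447641-141447670, plus strand: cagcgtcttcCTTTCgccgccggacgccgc
Rps6, chr4:86857348-86857377, minus strand: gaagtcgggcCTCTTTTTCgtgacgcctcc
Rps18, chr17:33955646-33955675, minus strand: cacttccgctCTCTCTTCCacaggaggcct
Rps27, chr3:90213629-90213658, minus strand: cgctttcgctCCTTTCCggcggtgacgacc
Rps27rt, chr9:114982720-114982749, minus strand: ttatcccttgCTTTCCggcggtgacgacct
The next 2 windows are without the motif exactly at the start and belong to a core gene, Rpl37a, and to the paralog Rpl22l1. In the Rpl22l1 window a C followed by at least 4 pyrimidines begins within 10 bases after the start, so it has the motif by the wider rule.
Rpl37a, chr1:72711250-72711279, plus strand: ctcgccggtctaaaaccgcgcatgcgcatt
Rpl22l1, chr3:28805498-28805527, plus strand: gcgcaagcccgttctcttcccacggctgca

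Further motifs were searched on both strands in the 300 bases around each start. CCGGAAG, the core of the site read by ETS factors such as Gabpa, was present in 40.6% of the members with a window, against 9.93% of all genes and 37.7% of mitochondrial ribosomal protein genes. In assembly factor genes it was present in 33.3%. GGGCGG, the Sp1 box, was present in 62.5% against 38.2% of all genes, 49.3% of mitochondrial ribosomal protein genes and 61.5% of assembly factor genes. AAGATGG, the core of the Yy1 site, was present in 15.6% against 7.28% of all genes, 18.8% of mitochondrial ribosomal protein genes and 10.3% of assembly factor genes. TATAAA was present in 10.9% of the members against 15.7% of all genes, 7.25% of mitochondrial ribosomal protein genes and 5.13% of assembly factor genes. These matches describe the letters of the windows and say nothing of which factors are bound.

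All 87 members had counts in every library and passed the filter on low values. With vehicle, 3.41% and 3.501% of the counts fell on them, and with 5D 3.43% and 3.54%. The group means were 3.46% ± 0.0621 for vehicle and 3.49% ± 0.0757 for 5D (SD, n = 2 each). The groups overlapped, and the second library of each group was above the first. Exact 95% binomial intervals, which cover counting error only, were 3.41% to 3.42% and 3.49% to 3.51% for the vehicle libraries. For the 5D libraries they were 3.42% to 3.44% and 3.53% to 3.55%, so in both groups the replicates stood apart by more than their counting error. Mitochondrially encoded genes took 0.981% and 1.06% of the counts with vehicle and 0.809% and 0.808% with 5D, and with these genes out of the total the members' means were 3.49% and 3.51%. In bulk RNA, a share cannot tell fewer cells of a type from less RNA per cell.

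Core genes of the large subunit and the stalk took 1.94%, 1.99%, 1.95% and 2.01% of the counts of vehicle 1, vehicle 2, 5D 1 and 5D 2. Those of the small subunit took 1.36%, 1.39%, 1.36% and 1.41%. The ratio of large to small subunit counts was 1.42, 1.42, 1.43 and 1.42 in the same order, so both subunits went up and down with the library and the ratio differed little.

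**Figure D1:**
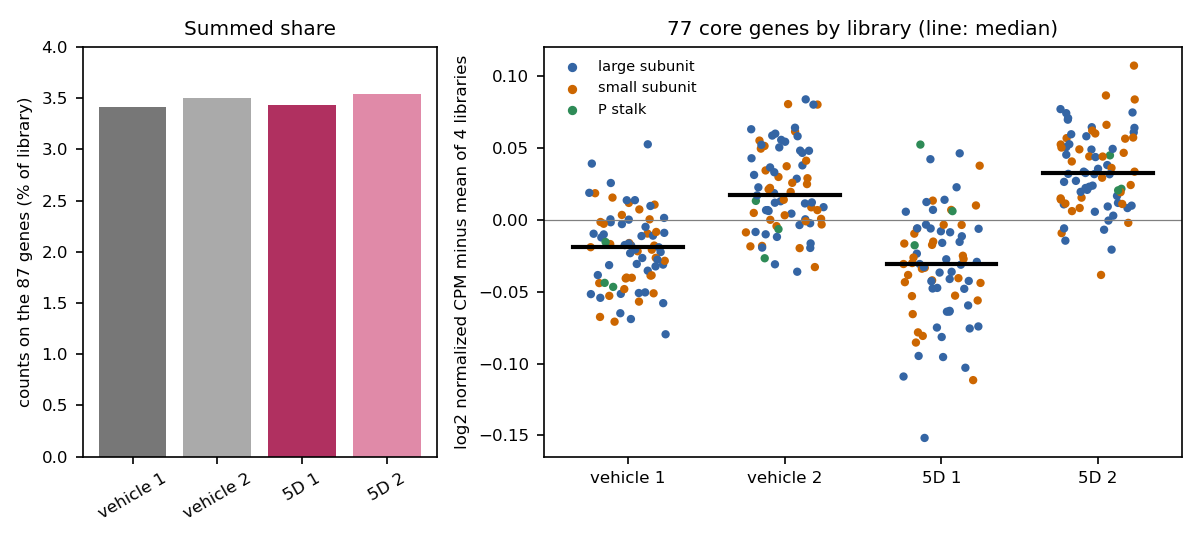
Left, the percent of each library's counts on the 87 members, one bar per library. Right, each of the 77 core genes as a point in each library, on the log2 scale of normalized CPM relative to its mean over the 4 libraries, with the median as a line. The medians of the second libraries lie above those of the first in both groups.

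The core genes were compared one library with another. Between the vehicle libraries the median log2 ratio of vehicle 2 over vehicle 1 was 0.040, with 65 of 77 genes higher in vehicle 2. Between the 5D libraries the median of 5D 2 over 5D 1 was 0.059, with 71 of 77 genes higher in 5D 2. The first library of each group was thus lower for most core genes. Across groups, the median was -0.013 for 5D 1 over vehicle 1 and 0.0099 for 5D 2 over vehicle 2. It was 0.054 for 5D 2 over vehicle 1, with 70 of 77 genes higher in 5D 2, and -0.047 for 5D 1 over vehicle 2, with 59 of 77 lower in 5D 1. The 4 medians across groups thus had both signs, and their sizes reached those within groups. The spread of the core genes around these medians was small, with SDs of the log2 ratio between 0.036 and 0.062.

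The comparison of 5D with vehicle addresses whether blocking Orai channels changed the mRNA of the ribosome. Counts were rounded and tested with edgeR's quasi-likelihood test over 17650 genes, with Benjamini-Hochberg adjustment. At an adjusted p under 0.05, 0 members were higher and 0 were lower with 5D, where 0.0283% of all tested genes were higher and 0.068% were lower. At an unadjusted p under 0.05, 0 members were higher and 1, Rpl10-ps3, was lower, against 3.5% and 3.84% of all tested genes. DESeq2 gave 0 members at an unadjusted p under 0.05 in the lower direction, where 2.35% of all tested genes were lower. With limma-voom there were 2 in each direction, against 3.42% of all tested genes higher and 4.02% lower. Neither gave any at an adjusted p under 0.05. The smallest adjusted p of a member was 0.647.

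The members' fold changes were narrow beside those of all tested genes. Their median log2 fold change was -0.0023, against -0.0016 over all tested genes, with 41 members higher and 46 lower. This split turned with single libraries: 25 were higher and 62 lower without vehicle 1 or without 5D 2, 55 and 32 without vehicle 2, and 60 and 27 without 5D 1. The median was then between -0.039 and 0.025. The SD of the log2 fold changes was 0.072 over the 87 members, 0.043 over the core genes and 0.79 over all tested genes, many of which had far fewer counts. In the lists of related genes given below, the SD ran from 0.051 for elongation factors to 0.15 for noncoding small nucleolar RNA hosts. It was 0.060 for other TOP mRNAs and 0.070 for mitochondrial ribosomal protein genes. For the core genes the values ran from -0.092 for Rps14 to 0.10 for Rps20. Of these genes 76 of 77 were within 0.1 of 0, as were 6827 of 17650 tested genes. The largest core change was 7.31% of the vehicle level. The 95% intervals of the fold change stayed within 0.25 of 0 on the log2 scale for 77 of 77 core genes and within 0.2 for 74 of 77. Over all 87 members the counts were 81 and 77. Over all 17650 tested genes they were 3361 and 1947, and genes with fewer counts have wider intervals. Both 5D libraries were above both vehicle libraries for 15 members and below for 9, where 18.7% and 18.8% of all tested genes were separated in this way.

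**Figure D2:**
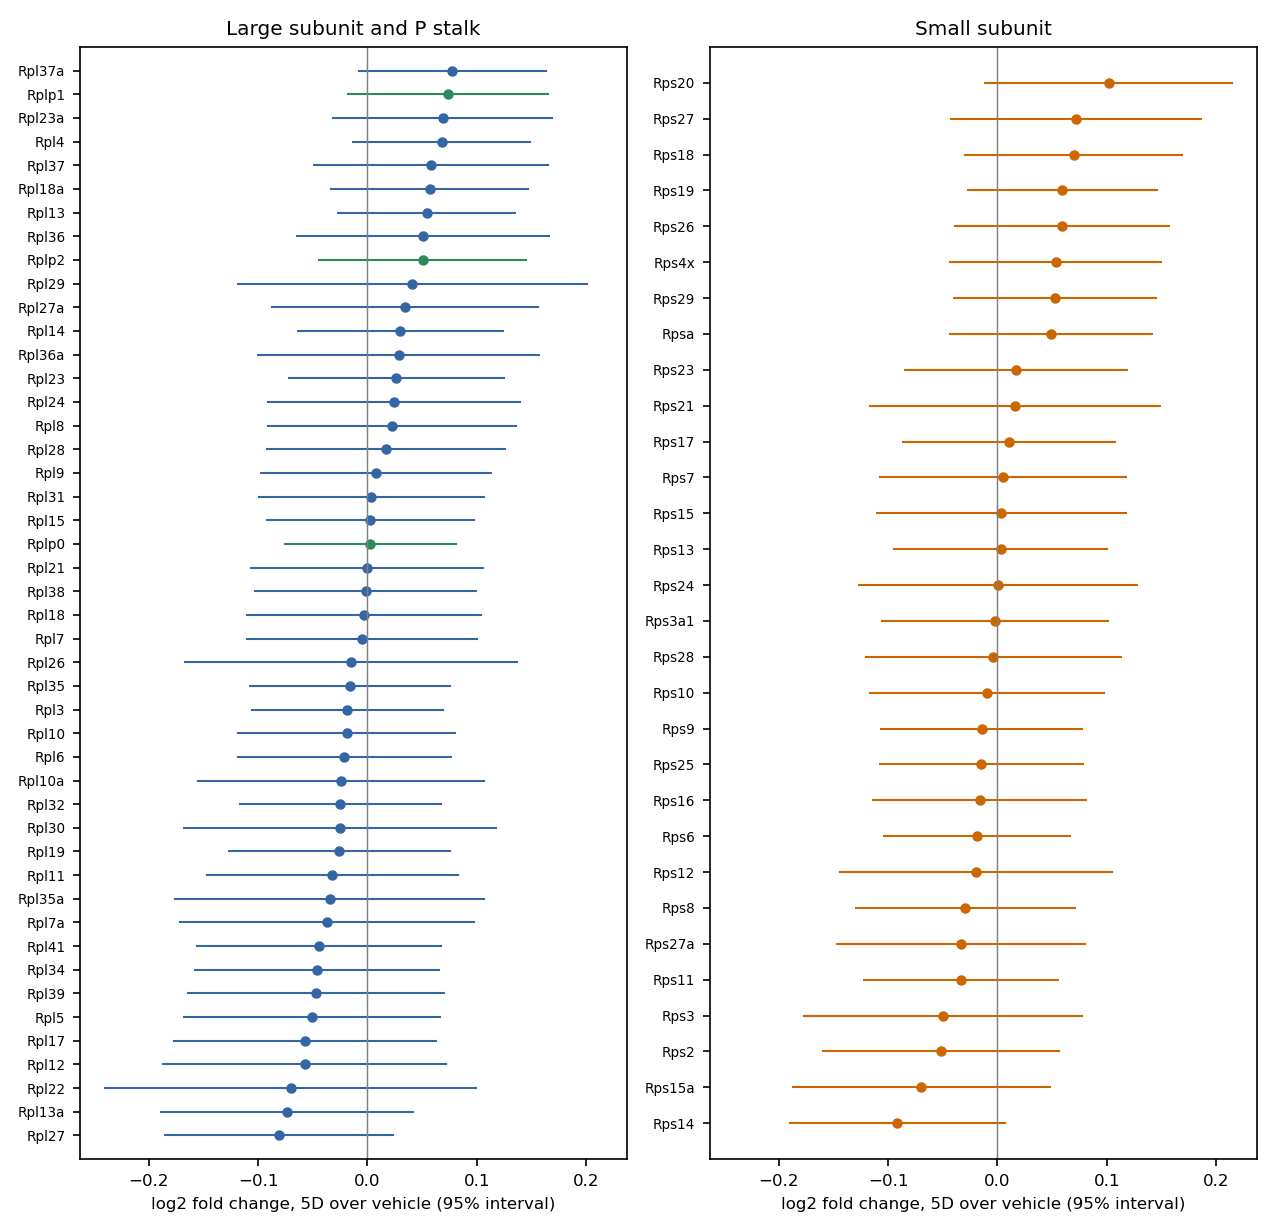
Log2 fold change of 5D over vehicle for 76 of the 77 core genes, with its 95% interval from the quasi-likelihood fit. The large subunit is in blue with the P stalk in green, the small subunit is in orange, and every interval crosses 0.

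In the large subunit, 21 of 46 core genes including the stalk were higher with 5D and 25 were lower. Their median log2 fold change was -0.0026. Rpl37a had 687 and 706 normalized CPM with vehicle and 739 and 731 with 5D. The groups did not overlap, and the log2 fold change was 0.078 (SE 0.039, unadjusted p = 0.0716, adjusted p = 0.720 by edgeR). The gene lies on chromosome 1 from 72711290 to 72713813, plus strand. Rpl4, which helps line the tunnel through which the new protein leaves, had 1064 and 1061 normalized CPM with vehicle and 1093 and 1134 with 5D. The 5D libraries were both above the vehicle libraries, at a log2 fold change of 0.068 (SE 0.037, adjusted p = 0.752 by edgeR).

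Among the lower genes of the large subunit, Rpl27 had 401 and 426 normalized CPM with vehicle and 386 and 396 with 5D. The 5D libraries were below both vehicle libraries, and the log2 fold change was -0.081 (SE 0.047, adjusted p = 0.771 by edgeR). Rpl13a, which also takes part in translational silencing of inflammatory mRNAs once released from the ribosome, had 318 and 311 with vehicle and 287 and 311 with 5D, at a log2 fold change of -0.074 (adjusted p = 0.827 by edgeR). Only 5D 1 stood clearly below the other libraries for this gene. Rpl5 and Rpl11 bind the 5S rRNA and, outside the ribosome, hold back Mdm2, the ligase that degrades p53. Rpl5 had 252 and 261 normalized CPM with vehicle and 239 and 256 with 5D, and Rpl11 had 266 and 284 with vehicle and 264 and 274 with 5D. Both overlapped between groups, with log2 fold changes of -0.051 and -0.032.

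The P stalk is the arm of the large subunit that recruits the elongation factors, with Rplp0 as its base and Rplp1 and Rplp2 as its acidic tips. Rplp1 had 488 and 495 normalized CPM with vehicle and 523 and 512 with 5D, a log2 fold change of 0.074 (SE 0.042, adjusted p = 0.756 by edgeR). Rplp2 had 451 and 463 with vehicle and 467 and 480 with 5D, a log2 fold change of 0.051 (SE 0.043, adjusted p = 0.869 by edgeR). For both tips the groups did not overlap. From the higher vehicle library to the lower 5D library, the gap ran from 495 to 512 for Rplp1. For Rplp2 it was narrower, from 463 to 467. Neither tip passed an adjusted p of 0.05 by edgeR. Rplp0 had 1204 and 1228 with vehicle and 1202 and 1235 with 5D, a log2 fold change of 0.0026 with overlapping groups. With the members left out of the normalization the sign of the Rplp0 value turned, to -0.0046.

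In the small subunit, 16 of 31 core genes were higher and 15 lower. Their median log2 fold change was 0.00065. Rps20, one of the proteins that is ubiquitinated when ribosomes collide, had 319 and 327 normalized CPM with vehicle and 333 and 360 with 5D. The groups did not overlap, but 5D 2 alone was well above, and the log2 fold change of 0.10 (SE 0.051, unadjusted p = 0.0727, adjusted p = 0.722 by edgeR) was 0.042 with 5D 2 left out. Rps18, in the head of the subunit, had 361 and 370 with vehicle and 378 and 389 with 5D, a log2 fold change of 0.070 (SE 0.045, adjusted p = 0.808 by edgeR) with separated groups. Rps19, mutated in Diamond-Blackfan anaemia, had 709 and 720 with vehicle and 733 and 757 with 5D, a log2 fold change of 0.059 (SE 0.039, adjusted p = 0.813 by edgeR), also with separated groups.

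Rps14 had the smallest p of the core genes, with 431 and 452 normalized CPM with vehicle and 412 and 416 with 5D. Both 5D libraries were below both vehicle libraries, and the log2 fold change was -0.092 (SE 0.045, unadjusted p = 0.0643, adjusted p = 0.712 by edgeR). Rps15a had 220 and 226 with vehicle and 206 and 219 with 5D, a log2 fold change of -0.070 (SE 0.054, adjusted p = 0.844 by edgeR); the gap between 219 and 220 is small. Rps6, the substrate of the S6 kinases, had 741 and 740 with vehicle and 720 and 741 with 5D, a log2 fold change of -0.019 with overlapping groups. Rps3, near the mRNA entry channel, had 612 and 660 with vehicle and 578 and 651 with 5D, where the 2 libraries of each group lay further apart than the group means. Rpsa, also known as the laminin receptor, had 879 and 915 with vehicle and 901 and 955 with 5D, with overlapping groups.

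Among the relatives, Rpl10-ps3 had the smallest p of all members. It is a single-exon copy of Rpl10 on chromosome 9 from 50344201 to 50344968, minus strand, whose name marks a pseudogene although the annotation types it as protein coding. It had 28.2 and 27.0 normalized CPM with vehicle and 23.4 and 22.9 with 5D, both lower with 5D, at a log2 fold change of -0.26 (SE 0.11, unadjusted p = 0.0415, adjusted p = 0.647 by edgeR). Its parent Rpl10, on chromosome X from 74270812 to 74273135, plus strand, had 692 and 712 with vehicle and 667 and 718 with 5D, a log2 fold change of -0.019 with overlapping groups. Across the 642 coding bases the copy and its parent are identical, so reads from the coding region cannot be assigned to one of them by sequence. Summed over both genes, vehicle 1 and 2 held 720 and 739 normalized CPM, 5D 1 and 2 held 690 and 741, and the log2 ratio of the group means was -0.027.

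The coding sequences below show how far reads can tell other relatives from their core genes. They are the first 60 coding bases from GENCODE M21 transcripts, with capitals where the relative differs from the core gene named before it.
Rps27: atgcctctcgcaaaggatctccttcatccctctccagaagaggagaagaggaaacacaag
Rps27rt: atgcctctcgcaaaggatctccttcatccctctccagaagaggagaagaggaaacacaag
Rps27l: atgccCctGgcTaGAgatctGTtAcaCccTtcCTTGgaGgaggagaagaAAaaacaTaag
Rpl36a: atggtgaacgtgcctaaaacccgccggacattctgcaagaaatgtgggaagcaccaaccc
Rpl36al: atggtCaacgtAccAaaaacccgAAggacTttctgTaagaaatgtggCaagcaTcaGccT
Over the whole coding sequence, Rps27rt was 100% identical to Rps27 and Rps27l 76.2%. Rpl36al was 87.7% identical to Rpl36a, Rpl39l 85.0% to Rpl39, Rpl22l1 67.5% to Rpl22 and Rpl7l1 54.4% to Rpl7. Rpl9-ps6 was 99.8% identical to Rpl9 and Rpl36a-ps1 97.8% to Rpl36a. The values of Rps27rt and Rpl9-ps6, like those of Rpl10-ps3, therefore depend on how the counting shared out reads.

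The counts of each relative were set against those of its core gene in every library. Rpl22l1 had 55.8% and 59.9% of the counts of Rpl22 with vehicle and 59.6% and 56.1% with 5D, and the groups overlapped. Rps27l, which p53 can induce, had 116% and 110% of the counts of Rps27 with vehicle and 106% and 104% with 5D. The 5D libraries were lower, and by counts Rps27l was above Rps27 in all 4 libraries. Per kilobase of transcript it was below, at 77.9% and 72.6% for the group means. Summed with its identical copy Rps27rt, Rps27 held 336 and 352 normalized CPM with vehicle and 349 and 372 with 5D. Rps27l had 358 and 356 with vehicle and 340 and 360 with 5D. It was thus above this sum with vehicle and below it with 5D. Rpl36al, a processed copy that has kept an open reading frame, had 256% and 259% of the counts of Rpl36a with vehicle and 250% and 237% with 5D, again with the 5D libraries lower. These ratios are given without a test. Rps27rt had 8.60% and 8.41% of the counts of Rps27 with vehicle and 8.51% and 7.77% with 5D. Rpl7l1 had 37.9% and 39.0% of those of Rpl7 with vehicle and 37.6% and 36.9% with 5D. The pseudogene entry Rps4l, which is no member, had 2.13% and 2.22% of the counts of Rps4x with vehicle and 2.29% and 2.46% with 5D.

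The core genes of these pairs are given in normalized CPM. Rps27, on the small subunit, had 309 and 325 with vehicle and 322 and 345 with 5D, a log2 fold change of 0.072 with overlapping groups. Rpl36a had 163 and 167 with vehicle and 162 and 174 with 5D, a log2 fold change of 0.028 with overlapping groups. Neither core gene was called, so the lower ratios of Rps27l and Rpl36al rest on shifts that were not called in the gene or in its relative. Rps27l itself had 358 and 356 normalized CPM with vehicle and 340 and 360 with 5D, and Rpl36al had 416 and 433 with vehicle and 405 and 413 with 5D. Rpl22, which also binds viral RNAs, had 133 and 142 with vehicle and 121 and 141 with 5D. Its paralog Rpl22l1 had 74.4 and 84.8 with vehicle and 71.9 and 79.2 with 5D. For both genes of this pair the first library was the lower in each group, and the groups overlapped. Rpl7 had 612 and 593 with vehicle and 575 and 626 with 5D, Rps4x 456 and 467 with vehicle and 469 and 489 with 5D, and Rpl39 262 and 271 with vehicle and 249 and 267 with 5D. The 5D libraries were above the vehicle libraries for Rps4x, at a log2 fold change of 0.053 (adjusted p = 0.861 by edgeR), and overlapped with them for the other two.

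Rpl39l, the paralog of Rpl39 that is best known from testis, had 8, 6, 8 and 16 counts in vehicle 1, vehicle 2, 5D 1 and 5D 2, which was 0.131%, 0.111%, 0.119% and 0.210% of Rpl39. One library, 5D 2, held the higher value, and no difference was detectable at this depth. Rpl36a-ps1 had 26, 33, 43 and 48 counts in the same order, and its log2 fold change of 0.24 had a 95% interval from -0.66 to 1.14. Rps19bp1 had 26.0 and 28.5 normalized CPM with vehicle and 26.6 and 27.1 with 5D. Rpl9-ps6 had 26.2 and 24.1 with vehicle and 25.6 and 28.7 with 5D. Groups overlapped for both.

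**Figure D3:**
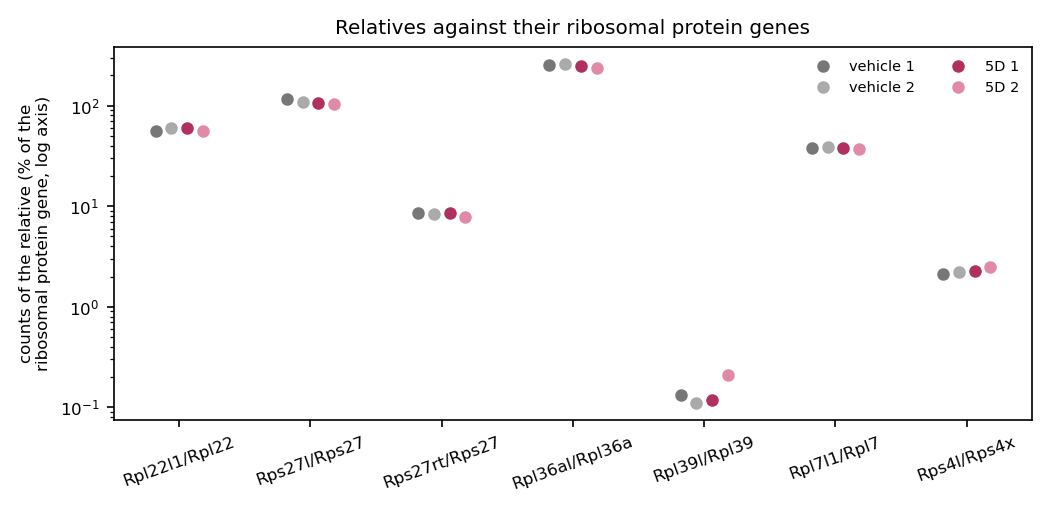
Counts of 7 relatives as a percent of the counts of their ribosomal protein gene (log axis), one point per library. The ratios span from about 0.111% for Rpl39l to 259% for Rpl36al, and the 4 libraries of each pair lie close together, except for Rpl39l in 5D 2.

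Near-identical copies concern nearly all members. A stretch of at least 150 bases at 95% identity or more was shared with another annotated gene by 82 of 87 members and by 75 of 77 core genes, with a median of 6 such genes for a core gene. Rpl21 shared one with 62 genes, the most of the core. Of the entries whose names begin like those of the members, 169 were typed as pseudogenes. They took 0.128% and 0.133% of the counts with vehicle and 0.130% and 0.133% with 5D. Of the 169 entries, 96 had a mean under 10 counts, and 7 had a mean over 1000. Near-identical copies under other names were not included, so these shares cover only part of the copies. A pseudogene entry with many counts was Rps2-ps10, with 4585, 4263, 5838 and 6086 counts, chosen after its values were seen. Adding the 169 entries to the members gave group means of 3.59% and 3.62%. Of the members' values, between 5.75% and 6.90% in a library were whole numbers (within 1e-06), where between 51.7% and 54.8% of all values were. Zeros, which no member had, count as whole, and without them the share over all genes was between 46.1% and 48.6%.

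Levels were compared between genes only per length, as normalized CPM per kilobase of the shortest transcript with the main coding sequence. Core genes had a median level of 549 per kilobase, with quartiles of 340.0 and 763. The range was 18.1-fold, from 90.4 for Rps20 to 1640 for Rpl41. With the union of annotated exons as length it was 32.1-fold, from 31.5 for Rpl35a to 1011 for Rplp1. Rpl41, the shortest protein of the ribosome, had the highest mean level per kilobase at 1640, followed by Rpl32 at 1432, Rpl13 at 1325, Rps29 at 1303 and Rpl37a at 1283. Rpl13, Rps29 and Rpl37a lay within the spread of their values over the libraries, although their order was the same in all 4. In normalized CPM, Rpl41 had 710.0 and 746 with vehicle and 671 and 741 with 5D, and Rpl32 had 728 and 765 with vehicle and 722 and 746 with 5D. The groups of both overlapped. Rpl13 had 997 and 1031 with vehicle and 1049 and 1056 with 5D, and Rps29 had 491 and 506 with vehicle and 521 and 513 with 5D. For these 2 genes both 5D libraries were higher, at log2 fold changes of 0.054 (SE 0.037) and 0.053 (SE 0.042), with adjusted p of 0.820 and 0.854 by edgeR. The lowest were Rpl39l at 0.681, Rpl36a-ps1 at 3.36, Rps19bp1 at 32.3, Rpl10-ps3 at 33.03 and Rpl9-ps6 at 36.6, all of them relatives. The low place of Rps20 rests on an annotated transcript of 3706 bases, the longest of the members. With the union of annotated exons as length, 1 of the 5 highest members remained among the 5 highest, Rpl32, while 4 of the 5 lowest remained among the lowest.

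**Figure D4:**
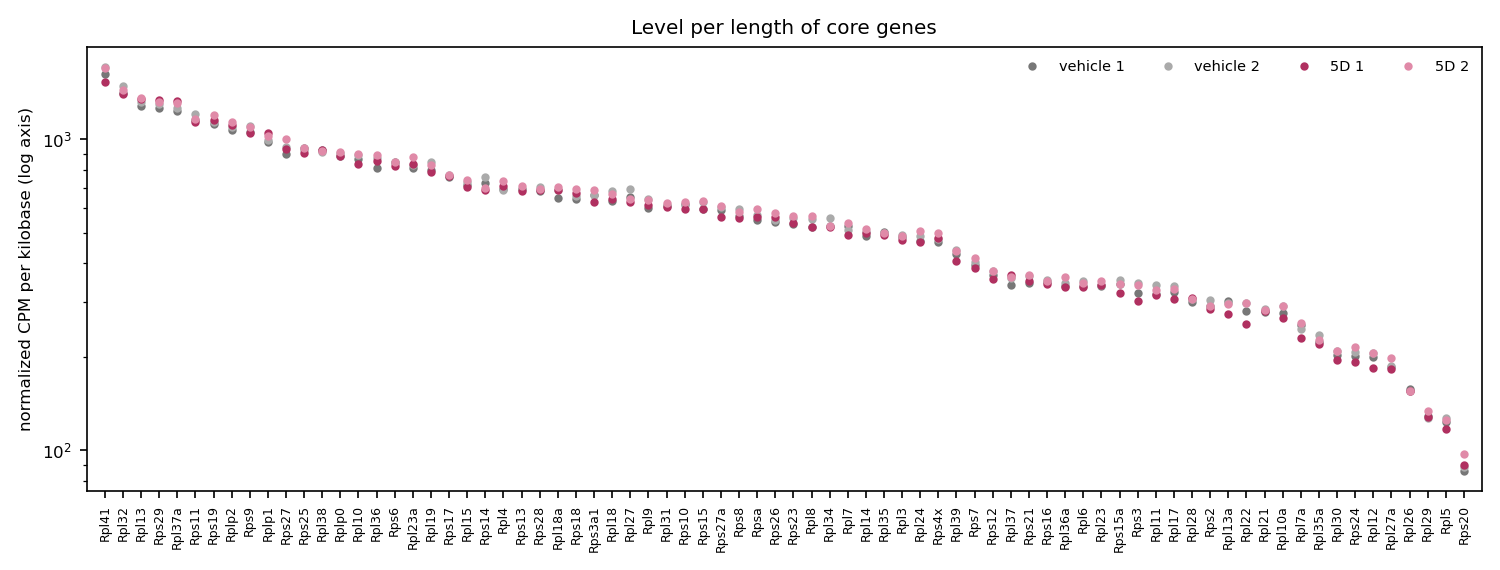
Level of 76 of the 77 core genes as normalized CPM per kilobase of transcript (log axis), ordered from Rpl41 at 1640 to Rps20 at 90.4, with a point for each of the 4 libraries. The 4 points of a gene lie close together beside the 18.1-fold range between genes.

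Some features of the core genes were set beside their fold changes as a description. Over the 77 core genes, which share the same 4 libraries, the log2 fold change and the log2 transcript length had Pearson's r of 0.012 and Spearman's rho of -0.059. With the log2 mean count the values were 0.23 and 0.24. The 13 core genes with the pyrimidine motif at the start had a median log2 fold change of 0.0028, the 44 without it -0.0037 and the 20 without a promoter window 0.0050. Small nucleolar RNAs, which guide the modification of rRNA, were annotated within 30 of the members, 58 of them in all. Among these hosts 11 were higher and 19 lower, at a median of -0.019 on the log2 scale, beside 0.0026 for the other 57 members. Both 5D libraries were above both vehicle libraries for 8 hosts and below for 1, where 18.7% and 18.8% of all tested genes were separated in this way. For the other 57 members the counts were 7 and 8. None of these groups held a gene at an adjusted p under 0.05 by edgeR.

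Rack1 and Fau encode proteins of the small subunit whose names fall outside the rule. Rack1, a scaffold for signalling proteins, had 655 and 655 normalized CPM with vehicle and 631 and 639 with 5D. The groups did not overlap, and the log2 fold change was -0.045 (SE 0.039, adjusted p = 0.872 by edgeR). Fau had 252 and 277 with vehicle and 269 and 273 with 5D, a log2 fold change of 0.035 with overlapping groups.

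Genes that make, regulate or work with the ribosome were read from lists. None of these lists held a gene at an adjusted p under 0.05 by edgeR. Of the 78 mitochondrial ribosomal protein genes, which form the separate ribosome of mitochondria, 41 were higher and 37 lower. Their median on the log2 scale was 0.0045, and 0 had an unadjusted p under 0.05. Of the 7 elongation factor genes, 3 were higher and 4 lower, with a median of -0.011. Of the 18 other mRNAs known for a TOP start, 11 were higher and 7 lower. Ipo5, a nuclear import receptor, had 171 and 160 normalized CPM with vehicle and 179 and 190 with 5D, a log2 fold change of 0.16 (SE 0.060, unadjusted p = 0.0233, adjusted p = 0.590 by edgeR). Eif3a, the largest subunit of initiation factor eIF3, had 353 and 337 with vehicle and 320 and 319 with 5D, a log2 fold change of -0.11 (SE 0.047, unadjusted p = 0.0388, adjusted p = 0.641 by edgeR).

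Of the 46 ribosome assembly factor genes, 13 were higher and 33 lower, and the median was -0.044 on the log2 scale. At an unadjusted p under 0.05, 3 of the 46 were lower and 0 higher, beside 3.84% and 3.5% of all tested genes. Both 5D libraries were below both vehicle libraries for 14 of the 46 and above for 4. Of all tested genes, 18.8% and 18.7% were separated in this way. Bop1, needed for the large subunit rRNA, had 154 and 165 normalized CPM with vehicle and 144 and 142 with 5D, a log2 fold change of -0.15 (SE 0.060, unadjusted p = 0.0265, adjusted p = 0.612 by edgeR). Nop56, a core protein of box C/D small nucleolar ribonucleoproteins, had 324 and 302 with vehicle and 295 and 279 with 5D, a log2 fold change of -0.13 (SE 0.054, adjusted p = 0.641 by edgeR). Mdn1, an ATPase that strips factors from the precursor of the large subunit, had 25.4 and 36.5 with vehicle and 24.2 and 22.8 with 5D, where vehicle 2 stood above the other 3 libraries. Of the 14 genes of RNA polymerase I and its factors, 6 were higher and 8 lower, with a median of -0.016.

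In the list of mTORC1, S6 kinase and cap binding genes, 11 of 21 were higher and 10 lower. Rptor, the scaffold of mTORC1, had 52.5 and 52.5 normalized CPM with vehicle and 63.2 and 60.2 with 5D, higher in both 5D libraries, at a log2 fold change of 0.23 (SE 0.082, unadjusted p = 0.0152, adjusted p = 0.566 by edgeR). Of the 8 transcription factors linked to ribosome genes, 2 were higher and 6 lower, with a median of -0.12. Yy1 had 34.6 and 35.2 normalized CPM with vehicle and 30.1 and 29.2 with 5D, a log2 fold change of -0.24 (SE 0.10, unadjusted p = 0.0401, adjusted p = 0.645 by edgeR). The 9 noncoding hosts of small nucleolar RNAs with TOP starts had a median of -0.088 and none had an unadjusted p under 0.05. Of the 14 ribosome quality control genes, 5 were higher and 9 lower, with a median of -0.0025.

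The remaining genes with the smallest p in each direction of a list are given by their log2 fold change, and none was called. Eef2, which moves the ribosome along the mRNA, was at 0.027 and the translation factor Eif5a at -0.054. Of the RNA polymerase I list, Taf1a was at 0.37 (unadjusted p = 0.0537) and Taf1d at -0.18 (unadjusted p = 0.0519), both subunits of the selectivity factor of this polymerase. Utp15, of the small subunit processome, was at 0.18 (unadjusted p = 0.0554). Larp1, which binds TOP mRNAs, was at -0.13 (unadjusted p = 0.0944), and Mlx, a partner of Myc-related factors, at 0.068. The noncoding hosts Epb41l4aos and Zfas1 were at 0.20 and -0.21. Ltn1, the ligase that marks stalled nascent chains, was at 0.12 and Gtpbp1 at -0.082.

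**Figure D5:**
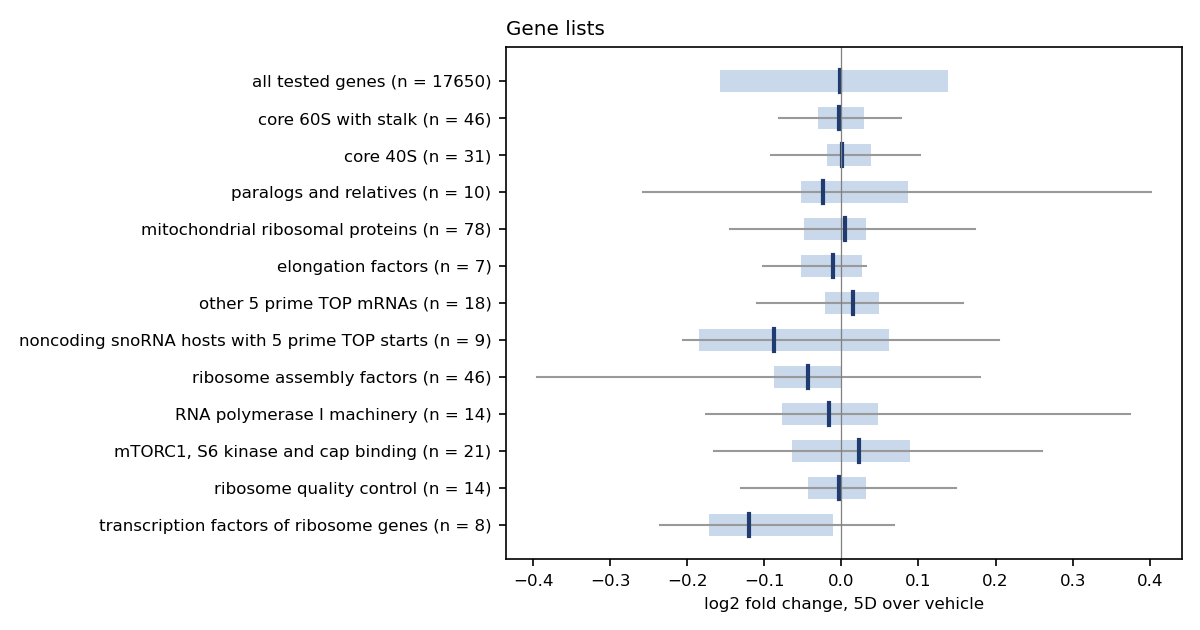
Log2 fold change of 5D over vehicle for the core genes, the relatives and 9 lists of genes around the ribosome, beside all 17650 tested genes. The line is the median, the bar the middle 50% of genes and the thin line the full range, which is not drawn for all tested genes. The bars of both core subunits are narrow. The medians furthest below 0 are those of the transcription factors at -0.12, the noncoding hosts at -0.088 and the assembly factors at -0.044. The remaining medians are closer to 0 and have both signs.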

How the data were processed

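RNA was sequenced from 4 libraries of sorted lung ILC2s, 2 with vehicle and 2 with compound 5D. The authors deposited estimated counts per gene, which need not be whole; the submitters' processing notes name CASAVA 1.8.2, STAR 2.6.1 and Partek, with the mm10 genome and GENCODE M21 as annotation. How reads with several matches were shared out is not given in the sources used here.

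Counts were rounded to whole numbers, scaled by the upper quartile over all genes, and kept where the mean normalized count was at least 1 and the sum at least 10, which left 17650 genes and left out 4904. The test was edgeR 4.0.16 quasi-likelihood in R 4.3.3, two-sided, with Benjamini-Hochberg adjustment over these genes; the script was tested on simulated data. The standard error of a fold change is its absolute log2 value over the square root of its F statistic. Alternatives used limma 3.58.1 and DESeq2 1.42.0. Near-identical stretches came from BLAST 2.17.0 against GENCODE M21 transcripts, and promoter windows from RefSeq (GRCm38.p6). The biological coefficient of variation was 8.51%.

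Members and gene lists were chosen with earlier results of these data known. Members are named if they were past an adjusted p of 0.05, among the 5 higher or 5 lower with the smallest p, among the 5 highest or 5 lowest per kilobase, a relative or its core gene, or one of 10 well-known members. In other lists, genes are named if they had the smallest p in a direction, and Nop56 and Mdn1 because the count of 3 holds them. Rpl10l and Rpl3l were not analysed here, and the values of a few other genes are not reported here. Planned with whole-number counts in view, the test was run on rounded values.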

Additional observations from a re-analysis of the deposited data

How the results depend on the processing

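No member passed an adjusted p of 0.05 by edgeR, DESeq2 or limma-voom under any of the 12 alternatives, and 445 of 467 values of the 39 named members kept their direction. At an unadjusted p under 0.05, TMM gave 1 higher member, where 3.89% of all tested genes were higher. Limma-voom gave 2 higher and 2 lower, against 3.42% and 4.02% of all tested genes. DESeq2 gave 0 lower, against 2.35%. Leaving out 1 library left a group with 1 library, so only the sizes and signs of the changes are given for these fits. The members' median then ran from -0.039, without 5D replicate 2, to 0.025, without 5D replicate 1, and the members higher and lower numbered 25 and 62 and 60 and 27 in these cases. Signs turned to 0.0042 for Rpl7 with TMM, and to -0.00093 for Rps27rt and -0.0046 for Rplp0 with the members left out of the normalization. With 1 library left out, the log2 fold changes that changed sign ran from -0.075 to 0.029 for Rpl10, -0.082 to 0.013 for Rpl11, -0.19 to 0.035 for Rpl22, -0.17 to 0.019 for Rpl22l1, -0.064 to 0.0087 for Rpl32, -0.025 to 0.074 for Rpl36a, -0.019 to 0.54 for Rpl36a-ps1, -0.13 to 0.78 for Rpl39l, -0.12 to 0.021 for Rpl41, -0.069 to 0.051 for Rpl7, -0.019 to 0.018 for Rplp0, -0.086 to 0.043 for Rps19bp1, -0.074 to 0.0077 for Rps27l, -0.017 to 0.023 for Rps27rt and -0.14 to 0.029 for Rps3. A group left with 1 library was assumed to vary like the other. The cause was not tested.

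With a replicate block, 0 members passed the adjusted threshold, and the median was -0.0031. At an unadjusted p under 0.05 in this fit, 1 member was lower, against 4.01% of all tested genes. Same-numbered libraries had a correlation of deviations of 0.021 over 12331 genes. For the core genes, the second library was above the first for 65 of 77 with vehicle and 71 of 77 with 5D. The main test did not take the numbers as pairs, and whether they mark pairs was not tested.

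The members' share was 3.59% with vehicle and 3.62% with 5D when the 169 pseudogene entries taken by name were added. It was 3.34% and 3.36% without the member with the most counts. Per kilobase, vehicle and 5D ratios were 49.7% and 49.7% for Rpl22l1, 77.9% and 72.6% for Rps27l, 7.85% and 7.51% for Rps27rt, 236% and 224% for Rpl36al and 34.1% and 33.1% for Rpl7l1. The pyrimidine motif was within 10 bases of the start in 59.4%. With the union of exons as length, an alternative chosen after seeing the data, 1 of the 5 highest members remained.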
